A study of Mus musculus with 6 samples.

Results

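Of the 24454 genes in the deposited table, the 9 described here are the Eph receptors Epha1, Epha2, Epha4, Ephb2, Ephb3 and Ephb4 and the ephrins Efna1, Efnb1 and Efnb2. They were taken as a named list of mouse genes, matched by gene ID to their symbols. All 9 had an entry, and all 9 passed the filter on low values. RNA came from Py2T, an epithelial line grown from a mouse mammary tumour, in 3 groups of 2 libraries. I60 cells were given 60 µM H2O2 every day over 4 months. C40 cells were given 40 µM H2O2 on the same schedule. PBS cells are the controls, labelled PBS with 0 µM H2O2 and elsewhere in the labels described as not treated. Each dose is represented by 1 line, so changes that a line gained during culture cannot be told apart from an effect of H2O2. Libraries of 1 group are called biological duplicates, with no word on whether they were cultured apart. The p-values of the main fit set a difference between groups against the spread between libraries of the same group, pooled over the 3 groups. Whether that spread includes differences between separate cultures is not stated.

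Eph receptors are receptor tyrosine kinases on the cell surface, and their ligands, the ephrins, are held in the membrane of the neighbouring cell. EphA receptors mostly bind the lipid-anchored ephrin-A ligands and EphB receptors the transmembrane ephrin-B ligands, while Epha4 binds both kinds. Contact sends a forward signal into the cell with the receptor and a reverse signal into the cell with the ephrin, and in epithelia these signals are known for cell sorting, boundary formation and the control of adhesion and movement.

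Values are read counts scaled to a common library total (CPM), and libraries held 48113692 to 60260520 reads, so that 1 read stood for 0.0166 to 0.0208 CPM. The C40 libraries differed from each other more than those of the other groups did. The SD of the log2 difference between replicates over the 11524 genes tested was 0.379 in I60, 0.623 in C40 and 0.363 in PBS. The label "epithelial" was checked against 15 markers. Krt8 and Krt18, keratins of simple epithelia, were above 1000 CPM in all 6 libraries. Cdh1, which encodes E-cadherin, was at 0.187 and 0.129 CPM in I60, 59.7 and 87.8 CPM in C40, and 529 and 537 CPM in PBS. The summed epithelial markers were 3174 and 3115 CPM in I60, 3916 and 3804 CPM in C40, and 7605 and 8450 CPM in PBS. Nearly all of the I60 sum was Krt8, at 1707 and 1574 CPM, and Krt18, at 1443 and 1513 CPM. Of the 14 tested, 12 were lower in I60 than in PBS and 11 in C40, and Krt8 and Krt18 passed in neither. The sum of 10 mesenchymal markers was 5454 and 7271 CPM in I60, 8675 and 13494 CPM in C40, and 1237 and 1808 CPM in PBS. Fn1 held most of that sum in C40, at 4870 and 10677 CPM, and in PBS, at 1120 and 1725 CPM. It was at 958 and 2269 CPM in I60, where it did not pass. Of the 10, 7 were higher and 1 lower in I60 than in PBS, and all 10 were higher in C40. Markers of fibroblasts summed to 382 to 433 CPM in I60, 160 to 627 CPM in C40 and 6.01 to 6.88 CPM in PBS, with Lum, Fap and Thy1 at 0 in all 6 libraries. Most of that sum was Col3a1, at 418 and 357 CPM in I60, 575 and 122 CPM in C40, and 0.0175 and 0 CPM in PBS. Of the 4 fibroblast markers tested, 3 were higher in I60 than in PBS and 4 in C40. Pericyte and smooth muscle markers summed to 35.7 to 52.9 CPM in I60, 33.6 to 112 CPM in C40 and 17.6 to 20.4 CPM in PBS. Of the 3 tested, 2 were higher and 1 lower in I60 than in PBS, and 1 was higher and 1 lower in C40. Pdgfrb was at 33.9 and 50.7 CPM in I60, 104 and 27.1 CPM in C40, and 0.21 and 0.083 CPM in PBS, while Notch3 was lower in both lines, by a log2 fold change of −4.89 in I60 and −1.36 in C40 (limma adjusted p = 2.76e-05 and 0.0121). Endothelial markers summed to at most 3.91 CPM in any library and immune markers to at most 39.3 CPM. The endothelial Flt1 and the immune Cd68 were higher in I60 than in PBS (log2 fold change 1.91 and 2.09, limma adjusted p = 0.00391 and 0.00292). Neither passed in C40. The immune Csf1r was lower in C40 (−1.84, limma adjusted p = 0.0109) and did not pass in I60. Levels over the marker lists moved with the groups in which the Eph genes changed, and their part in those changes was not tested.

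Of the 9 genes, 1 was higher and 4 were lower in I60 than in PBS, and 4 did not pass the test. Over all genes tested, 13.9% were higher and 13.1% lower in that comparison. In C40 against PBS, 1 of the 9 was higher, 2 were lower and 6 did not pass, where 11.2% of all genes were higher and 9.02% lower. In I60 against C40, 0 of the 9 were higher, 3 were lower and 6 did not pass, where 3.51% of all genes were higher and 5.73% lower. That 0 came from limma, stood at 0 for an unadjusted p below 0.05, and was also 0 with edgeR and with DESeq2. The median log2 fold change of the 9 was −0.91 in I60 against PBS, beside 0 for all genes, and −0.25 in C40 against PBS, beside −0.02. In I60 against C40 it was −0.54, beside 0.02. A call is a limma adjusted p below 0.05, Benjamini-Hochberg adjusted over all 11524 genes, and fold changes are on the log2(CPM + 0.5) scale, which understates the change of genes with few reads. Both comparisons with PBS use the same PBS libraries. Groups without overlap were common. Over all genes tested, 70.6% did not overlap in I60 against PBS, 62.7% in C40 against PBS and 48.8% in I60 against C40. Among the 9 genes, 1 lay above and 6 below in I60 against PBS. In C40 against PBS, 2 lay above and 2 below, and in I60 against C40, 2 above and 4 below. In these bulk samples, fewer cells that express a gene and less RNA per cell cannot be told apart.

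**Figure D1:**
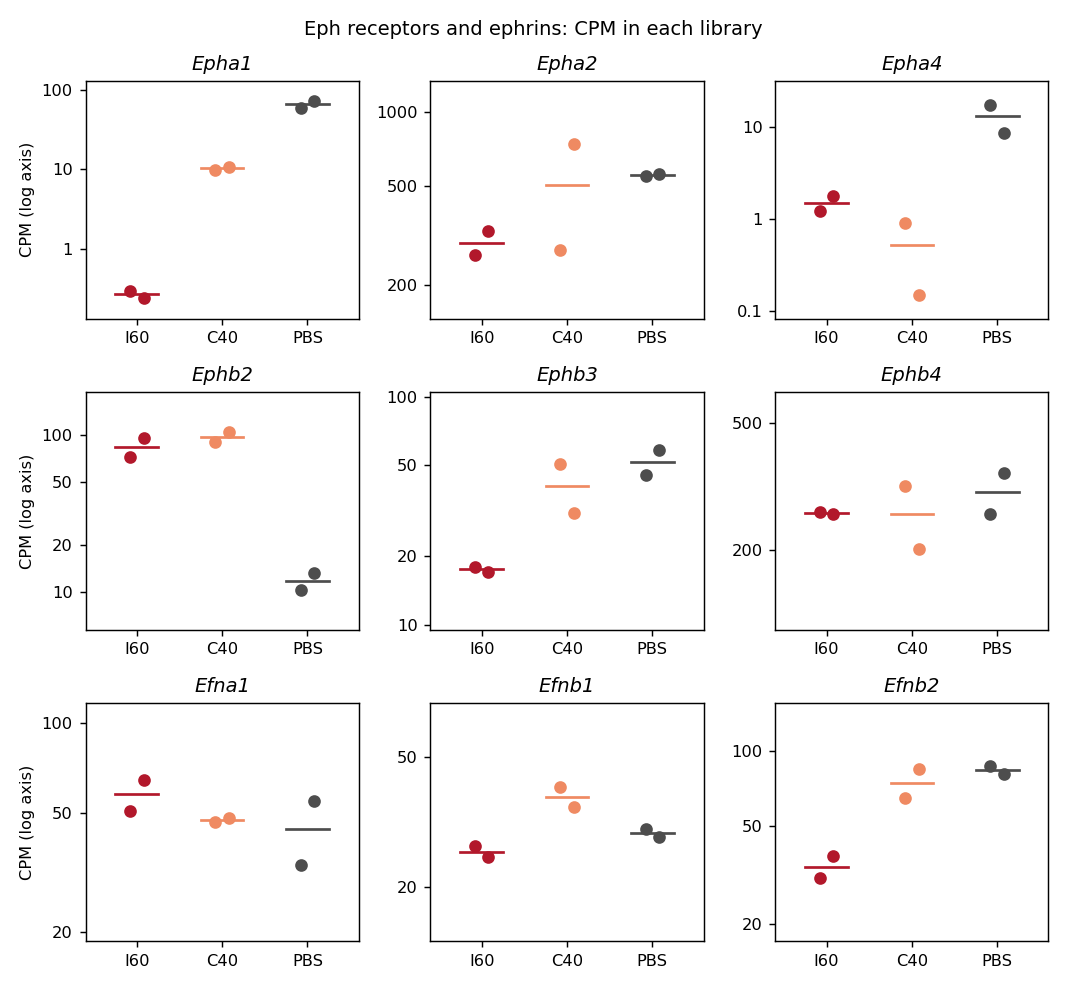
CPM of each gene (log axis, 1 panel a gene) in the 2 libraries of I60, C40 and PBS; points are libraries and bars are group means. Epha1 lay at 0.239 to 0.3 CPM in I60, 9.87 to 10.8 CPM in C40 and 59.7 to 72.1 CPM in PBS, and Ephb2 ran the other way between the H2O2 lines and PBS.

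Epha1, Epha4 and Ephb2 changed in both H2O2 lines, so their promoter windows are shown here, 5′ to 3′ on the strand of the gene, as RefSeq gives them for GRCm38.p6. Each runs from 250 bases before to 50 bases after the annotated start used for it. That start lies within the gene coordinates given below, and for Ephb2 the whole window does. All 3 genes lie on the minus strand. Capitals mark CACCTG or its reverse complement CAGGTG, the E-box bound by Zeb and Snai factors, which repress epithelial genes.
Epha1, chr6:42373219-42373518: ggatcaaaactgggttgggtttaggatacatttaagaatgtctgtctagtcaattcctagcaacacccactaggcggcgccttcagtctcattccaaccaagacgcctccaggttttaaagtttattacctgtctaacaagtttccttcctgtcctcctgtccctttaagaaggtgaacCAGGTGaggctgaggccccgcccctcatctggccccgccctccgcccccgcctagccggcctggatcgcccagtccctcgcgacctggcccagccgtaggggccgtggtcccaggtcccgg
Epha4, chr1:77515039-77515338: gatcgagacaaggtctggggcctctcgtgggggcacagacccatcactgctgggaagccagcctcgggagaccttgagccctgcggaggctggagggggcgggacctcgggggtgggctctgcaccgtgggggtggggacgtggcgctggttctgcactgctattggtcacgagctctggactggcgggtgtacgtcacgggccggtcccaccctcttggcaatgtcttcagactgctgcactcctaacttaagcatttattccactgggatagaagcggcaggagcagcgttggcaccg
Ephb2, chr4:136835963-136836262: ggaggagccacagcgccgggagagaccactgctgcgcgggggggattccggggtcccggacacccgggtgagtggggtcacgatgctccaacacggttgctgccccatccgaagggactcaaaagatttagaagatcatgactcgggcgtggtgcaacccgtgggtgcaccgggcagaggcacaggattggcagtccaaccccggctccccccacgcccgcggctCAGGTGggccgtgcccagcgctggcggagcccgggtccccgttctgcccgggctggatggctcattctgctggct
Epha1 held 1 match, starting at base −71 from the start used for its window, and Ephb2 held 1, starting at base −25. The window of Epha4 held 0. The motif, searched on both strands, stood in 20.2% of 32851 RefSeq promoters of this length and in those of 3 of the 9 genes (Epha1, Ephb2 and Efnb2). Of these, Epha1 was called lower and Ephb2 higher in both H2O2 lines, and Efnb2 was called lower in I60, each against PBS. Whether Zeb or Snai factors act on these genes was not tested. A match describes letters in the window and is not a measured binding site. The GC box GGGCGG stood in 7 of the 9 and in 35.7% of all promoters. It may overlap other motifs. The windows of the 9 genes held 54.7% to 72.3% GC, beside a median of 52.7% over all promoters, so these shares are not matched for base content. Efna1 has 2 windows, and a match in either counted, while the share over all is per promoter. The AP-1 motif TGANTCA stood in 0 of the 9 and in 7.81% of all, and the canonical E-box CACGTG in 0 of the 9 and in 7.15%. The antioxidant response element core TGACNNNGC stood in Efnb2 and in 12.4% of all promoters, and the TCF/LEF core CTTTGA in Epha2 and in 16.0%.

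Epha1 (chr6:42358487-42373314, mm10), which encodes an epithelial EphA receptor, showed the largest change of the 9 in I60. It was at 0.3 and 0.239 CPM in I60, 9.87 and 10.8 CPM in C40, and 59.7 and 72.1 CPM in PBS. The groups did not overlap, and the I60 values rest on 16 and 13 reads, against 475 and 588 in C40 and 3414 and 4347 in PBS. The log2 fold change was −6.43 in I60 against PBS (SE 0.23, limma adjusted p = 8.23e-06), and the ratio of the mean CPM was 245-fold lower. In C40 against PBS it fell by 2.61 (SE 0.23, limma adjusted p = 0.000498). I60 and C40 differed as well, with a log2 fold change of −3.82 in I60 against C40 (limma adjusted p = 0.000239). All 3 calls held in each of the 17 alternatives tried. Epha1 overlaps Zyx on the opposite strand by 1727 bases, and the strand setting of the counting is not given, so reads from that stretch cannot be told apart. Zyx was at 710 and 583 CPM in I60, 637 and 908 CPM in C40, and 305 and 277 CPM in PBS.

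Epha2 (chr4:141301221-141329384), a receptor studied in breast cancer for its part in migration and growth, had the highest level of the 9 per length of exon. It was at 264 and 329 CPM in I60, 276 and 737 CPM in C40, and 552 and 561 CPM in PBS. Both I60 libraries lay below both PBS libraries, while the C40 libraries stood on either side of PBS. The C40 replicates were 2.67-fold apart. The log2 fold change was −0.91 in I60 against PBS (95% interval −1.89 to 0.07, limma adjusted p = 0.15) and −0.3 in C40 against PBS (−1.28 to 0.68, limma adjusted p = 0.641). Neither passed the test. These calls turned on the C40 libraries, which share the estimate of the spread. Without C40 replicate 1 or 2, Epha2 was called lower in I60 than in PBS (limma adjusted p = 0.00418 and 0.00384), and so it was in a fit of those 2 groups alone (limma adjusted p = 0.00402). Without C40 replicate 2 the log2 fold change in C40 against PBS was −1.01. Over the 17 alternatives that value ranged from −1.01 to 0.41, so its sign changed. Without C40 replicate 1 the log2 fold change in I60 against C40 was −1.32, and over the 17 alternatives it ranged from −1.32 to 0.1.

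Epha4 (chr1:77367182-77515107), the receptor that binds ligands of both classes, was low throughout. It was at 1.2 and 1.77 CPM in I60, 0.894 and 0.147 CPM in C40, and 17.4 and 8.45 CPM in PBS. All 4 libraries of the H2O2 lines lay below both PBS libraries. C40 replicate 2 held 8 reads and C40 replicate 1 held 43. The log2 fold change was −2.69 in I60 against PBS (SE 0.47, limma adjusted p = 0.00594) and −3.73 in C40 against PBS (SE 0.47, limma adjusted p = 0.00203). The I60 call was lost without I60 replicate 1 (limma adjusted p = 0.0582) or PBS replicate 1 (limma adjusted p = 0.0508), while the C40 call held in all 17 alternatives. I60 lay above C40 in both libraries, but with a log2 difference of 1.05 the test did not separate them (limma adjusted p = 0.256).

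Ephb2 (chr4:136647536-136836326), an EphB receptor of the intestinal crypt and of axon guidance, was the 1 gene of the 9 that rose. It was at 72 and 95.6 CPM in I60, 89.8 and 104 CPM in C40, and 10.4 and 13.3 CPM in PBS. Every library of both H2O2 lines lay above both PBS libraries, and I60 and C40 overlapped. It rose by 2.77 on the log2 scale in I60 against PBS (SE 0.23, limma adjusted p = 0.000177), which is 6.82-fold. In C40 against PBS it rose by 2.98 (SE 0.23, limma adjusted p = 0.000291), which is 7.92-fold. Both calls held in all 17 alternatives. Between I60 and C40 the log2 fold change was −0.22 (limma adjusted p = 0.65).

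Ephb3 (chr16:21204620-21223309), which acts with Ephb2 in the positioning of intestinal cells, fell in I60. It was at 18 and 17.1 CPM in I60, 50.7 and 30.9 CPM in C40, and 45.5 and 58.2 CPM in PBS. I60 lay below both other groups, and C40 and PBS overlapped. The log2 fold change was −1.52 in I60 against PBS (SE 0.28, limma adjusted p = 0.00684) and −0.37 in C40 against PBS (limma adjusted p = 0.371). The I60 call was lost without I60 replicate 2 (limma adjusted p = 0.0606) or PBS replicate 2 (limma adjusted p = 0.0677). I60 against C40 gave −1.15 at a limma adjusted p of 0.0471. Leaving out any library other than C40 replicate 2 moved that p to between 0.0728 and 0.242, past the threshold. The call was also lost with no filter on low values, with a minimum of 5 CPM, with no intensity trend and with only the 2 groups compared (limma adjusted p = 0.0877, 0.0501, 0.0526 and 0.107), so that it held in 8 of 17 alternatives.

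Ephb4 (chr5:137350109-137374522), the receptor for ephrin-B2 in vessels and in the mammary gland, passed the test in no comparison. It was at 264 and 260 CPM in I60, 318 and 202 CPM in C40, and 259 and 348 CPM in PBS. The 3 groups overlapped. Its log2 fold change was −0.2 in I60 against PBS, with a 95% interval of −0.79 to 0.4, and −0.25 in C40 against PBS.

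Of the listed ephrins Efna1, Efnb1 and Efnb2, Efnb2 (chr8:8617235-8661242), the main ligand of Ephb4, was the 1 that changed. Outside this list, the ephrins Efna3, Efna5 and Efnb3 were also called lower in I60 than in PBS, as given below. Efnb2 was at 30.7 and 37.5 CPM in I60, 64.5 and 84.5 CPM in C40, and 86.8 and 80.6 CPM in PBS. I60 lay below both other groups, and C40 and PBS overlapped. The log2 fold change was −1.29 in I60 against PBS (SE 0.21, limma adjusted p = 0.00403), a call that held in all 17 alternatives, and −0.18 in C40 against PBS (limma adjusted p = 0.575). In I60 against C40 it was −1.11 (limma adjusted p = 0.0175). That call was lost without I60 replicate 1 or 2 (limma adjusted p = 0.145 and 0.0792) and without PBS replicate 1 or 2 (limma adjusted p = 0.058 and 0.0579). With only the 2 groups compared the limma adjusted p was 0.0597.

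Efna1 (chr3:89271730-89280951), a ligand of Epha2, was at 50.7 and 64.5 CPM in I60, 46.5 and 47.8 CPM in C40, and 33.5 and 54.7 CPM in PBS. Its groups overlapped with PBS, and the log2 fold change was 0.41 in I60 (95% interval −0.22 to 1.04) and 0.14 in C40. Efnb1 (chrX:99136061-99149022), a ligand of the EphB receptors, was at 26.7 and 24.6 CPM in I60, 40.5 and 35 CPM in C40, and 30 and 28.5 CPM in PBS. Its I60 libraries lay below PBS and its C40 libraries above, but the log2 fold changes of −0.18 and 0.36 did not pass the test (limma adjusted p = 0.522 and 0.225).

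**Figure D2:**
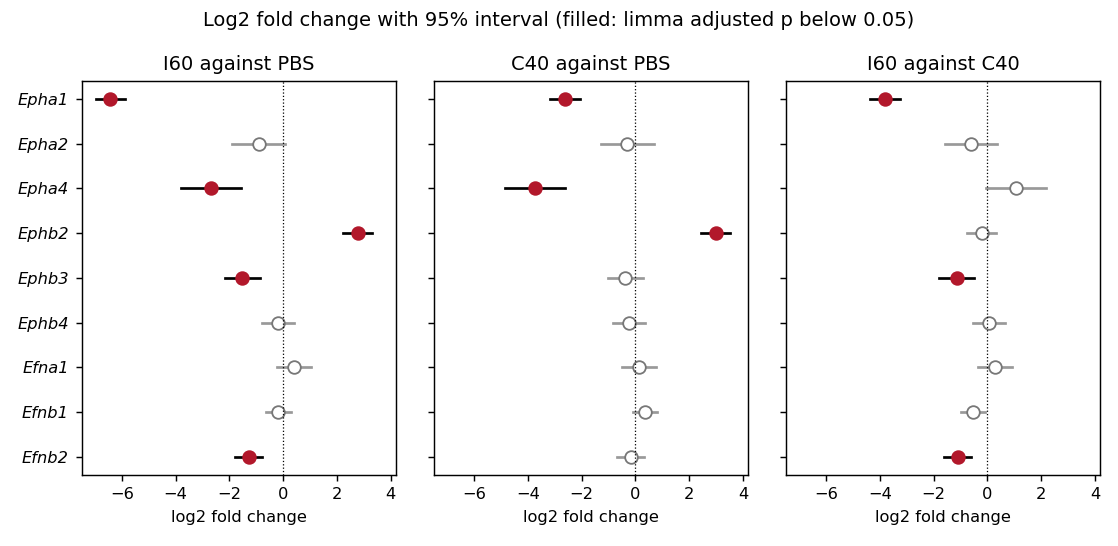
Log2 fold change of each gene (horizontal axis, no unit) with its 95% interval, for I60 against PBS, C40 against PBS and I60 against C40; filled points passed the limma test at an adjusted p below 0.05. Ephb2 rose by 2.77 and 2.98 in the comparisons with PBS, and the other points that passed lay below 0.

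Levels of different genes were compared per kilobase of merged exon. Epha2 was first in every group, at 63.5 CPM per kb in I60, 108 in C40 and 119 in PBS. Ephb4 followed, at 56.5 CPM per kb in I60, 56 in C40 and 65.4 in PBS, and its libraries overlapped those of Epha2 in I60 and in C40. Efna1 came next in all 3 groups, at 31.5 CPM per kb in I60, 25.8 in C40 and 24.1 in PBS. Below these the order changed. Epha1 had rank 9 of 9 in I60 at 0.0686 CPM per kb, rank 8 in C40 at 2.63 and rank 4 in PBS at 16.8, where its libraries overlapped those of Efna1. Ephb2 had rank 5 in I60 at 6.65 CPM per kb, rank 6 in C40 at 7.67 and rank 9 in PBS at 0.939. Its libraries overlapped those of Epha4 in PBS.

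Over the 14 receptors of the family, Epha1 made up 0.0438% of the summed receptor level in I60, 1.21% in C40 and 7.15% in PBS. Ephb2 made up 4.15% in I60, 3.51% in C40 and 0.399% in PBS. Epha2 and Ephb4 together held most of the sum in each group. The EphA sum was 65.9 ± 9.11 CPM per kb in I60, 113 ± 71.3 in C40 and 142 ± 2.55 in PBS (SD, n = 2), while the EphB sum was 93.4 ± 10.2 in I60, 106 ± 38.4 in C40 and 92.3 ± 20.6 in PBS. Ephrin-A ligands summed to 39.4 ± 6.33 CPM per kb in I60, 40 ± 0.889 in C40 and 41.8 ± 8.78 in PBS, and ephrin-B ligands to 12.8 ± 0.224 in I60, 22.2 ± 0.88 in C40 and 21.5 ± 1.12 in PBS. The ephrin-B sum was the 1 of the 4 in which both I60 libraries lay below all 4 other libraries. These are descriptions with no test.

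**Figure D3:**
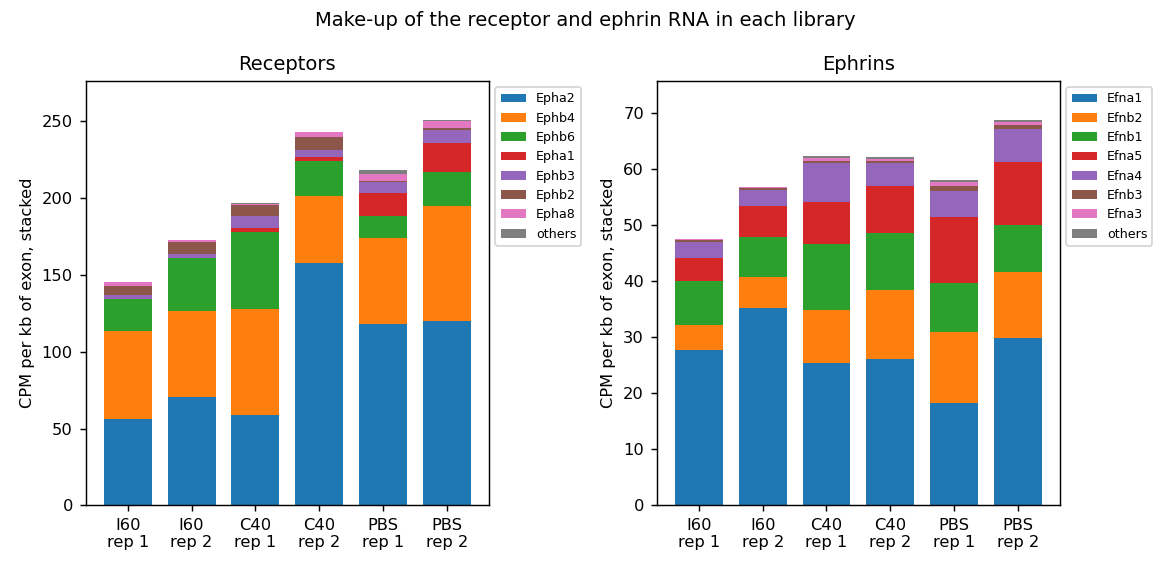
Summed CPM per kb of merged exon (vertical axis) of the receptors and of the ephrins in each library, stacked by gene. Epha1 made up 0.0438% of the receptor level in I60, 1.21% in C40 and 7.15% in PBS, and the ephrin columns of I60 held less Efnb2 than those of C40 and PBS.

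The rest of the family holds 13 genes, of which 6 were tested. Epha3, Epha5, Epha6 and Ephb1 had 0 reads in every library, which allows up to 0.0498 to 0.0624 CPM per library. In I60 against PBS, 0 of the 6 were higher and 3 were lower, where 13.9% and 13.1% of all genes tested were. In C40 against PBS, 0 were called in limma, where 11.2% of all genes were higher and 9.02% lower. Of the 6, 3 were lower there at an unadjusted limma p below 0.05. The shares given are for the adjusted p, and no share of all genes was taken at the looser unadjusted threshold. Efna5, an ephrin-A ligand, was at 16.9 and 22 CPM in I60, 30.4 and 33.6 CPM in C40, and 47.6 and 45.3 CPM in PBS. It fell by 1.24 on the log2 scale in I60 against PBS (limma adjusted p = 0.00509), and leaving out PBS replicate 1 ended that call (limma adjusted p = 0.0569). Efna3, another ephrin-A ligand, fell by 1.25 in I60 against PBS (limma adjusted p = 0.00594), at 0.356 and 0.387 CPM in I60, 1.02 and 0.901 CPM in C40, and 1.63 and 1.51 CPM in PBS. Efnb3, an ephrin-B ligand, was at 1.22 and 0.976 CPM in I60, 1.29 and 1.03 CPM in C40, and 2.91 and 2.16 CPM in PBS. It fell by 0.92 in I60 (limma adjusted p = 0.0359), and leaving out any I60 or PBS library moved this to between 0.066 and 0.19. With edgeR it was 0.0556, and with limma and no filter on low values 0.0583. In C40 against PBS the log2 fold change of Efnb3 was −0.86 (limma adjusted p = 0.0535), and it was called lower with TMM scaling, with DESeq2-type size factors and with no intensity trend (limma adjusted p = 0.0495, 0.0494 and 0.0355) and without C40 replicate 1 (limma adjusted p = 0.0437). Epha8 was at 12.3 and 7.44 CPM in I60, 4.82 and 14.4 CPM in C40, and 23.2 and 21.4 CPM in PBS, and did not pass (log2 fold change −1.17 in I60 and −1.35 in C40). Both H2O2 lines lay below PBS, and Epha8 was called lower in I60 without C40 replicate 1 or 2 (limma adjusted p = 0.0149 and 0.0156) and lower in C40 without C40 replicate 2 (limma adjusted p = 0.00544). Ephb6, an EphB receptor without kinase activity, was at 78.6 and 130 CPM in I60, 190 and 86.2 CPM in C40, and 53.4 and 83.7 CPM in PBS. It did not pass, and was called higher in C40 without C40 replicate 2 (limma adjusted p = 0.0258). Efna4 was at 4.42 and 4.66 CPM in I60, 11.1 and 6.59 CPM in C40, and 7.33 and 9.51 CPM in PBS. It did not pass, and was called lower in I60 against PBS without C40 replicate 1 or 2 (limma adjusted p = 0.0349 and 0.0347). Efna2, at 0.166 to 0.791 CPM, and Epha10, with at most 2 reads in a library, were not tested.

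Epha7, an EphA receptor left out of the test by the filter on low values, had 0 reads in both PBS libraries. It had 32 and 27 reads in I60 and 69 and 28 reads in C40. Taking 3 reads in the pooled PBS libraries as the floor, its level pooled over the 2 libraries was at least 21.4-fold higher in I60 and at least 37.0-fold higher in C40. These bounds are for the pooled reads and not for each library, and most of the C40 reads came from replicate 1. With no filter on low values, the limma adjusted p was 0.0662 in I60 and 0.033 in C40.

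Of 28 genes that carry the forward signal, 5 were called higher and 3 lower in I60, and 5 and 2 in C40, each against PBS. Over all genes tested, 13.9% were higher and 13.1% lower in I60, and 11.2% and 9.02% in C40. Kalrn, a guanine nucleotide exchange factor, was at 24.9 and 30.8 CPM in I60, 20.2 and 11.4 CPM in C40, and 0.123 and 0.083 CPM in PBS. It rose by 5.55 on the log2 scale in I60 (limma adjusted p = 3.62e-05) and by 4.7 in C40 (limma adjusted p = 0.000188). Arhgef15, a guanine nucleotide exchange factor that EphB2 holds in check in neurons, rose by 5.06 in I60 and 3.09 in C40. Arhgef16, an exchange factor that binds Epha2 in human cells, had 0 reads in both I60 libraries, was at 0.249 and 0.35 CPM in C40, and at 2.28 and 3.6 CPM in PBS. Taking 3 reads in the pooled I60 libraries as the floor, it was at least 106.0-fold lower in I60 than in the pooled PBS libraries. These 3 were called in both comparisons in every alternative in which they were tested. Inppl1, which encodes the lipid phosphatase SHIP2, rose by 1.29 in I60 and 1.1 in C40, and Pak1, a kinase activated by Rac1 and Cdc42, by 0.79 and 0.9. Tiam1, an exchange factor for Rac1, fell by 1.35 in C40 (limma adjusted p = 0.00829), and its log2 fold change in I60 was −0.61 (limma adjusted p = 0.104). It was called lower in I60 without C40 replicate 1 or 2 (limma adjusted p = 0.027 and 0.0252) and with only the 2 groups compared (limma adjusted p = 0.0235). In C40, Tiam1 and Pak1 lost their call without either PBS library (limma adjusted p from 0.0577 to 0.0903), and Inppl1 without PBS replicate 1 (limma adjusted p = 0.0747). In I60, Pak1 lost it without I60 replicate 2 or either PBS library (limma adjusted p from 0.066 to 0.0994).

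Of 8 tested genes of the reverse signal, 2 were higher and 2 lower in I60 and 1 was higher and 1 lower in C40. The shares of all genes tested are those given for the forward signal. Pard6b, a polarity protein that ephrin-B1 binds in frog embryos, was at 26.7 and 22.9 CPM in I60, 49.3 and 96.9 CPM in C40, and 175 and 220 CPM in PBS. It fell by 2.97 in I60 (limma adjusted p = 0.000663) and by 1.5 in C40 (limma adjusted p = 0.0178). The C40 call was lost without PBS replicate 1 or 2 (limma adjusted p = 0.087 and 0.119). In I60 Pdzrn3, a ubiquitin ligase with PDZ domains, rose by 2.35 and Rgs3, a regulator of G protein signalling bound by ephrin-B, by 1.1, while Sdcbp, the PDZ protein syntenin, fell by 1.01. The call of Pdzrn3 was lost without I60 replicate 1 or PBS replicate 2 (limma adjusted p = 0.0569 and 0.0543), that of Sdcbp without I60 replicate 1 or PBS replicate 1 (0.0671 and 0.085), and that of Rgs3 without any I60 or PBS library (0.075 to 0.231). Dvl2, a Dishevelled protein, rose by 1 in C40, and leaving out PBS replicate 1 ended that call (limma adjusted p = 0.108).

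Of 13 tested proteases, phosphatases and ubiquitin ligases that cut or switch off Eph receptors and ephrins, 0 were higher and 4 lower in I60, where 13.9% and 13.1% of all genes were. In C40, 0 were higher and 1 lower, where 11.2% and 9.02% of all genes were. In limma at an unadjusted p below 0.05, 1 was higher in I60 and 0 in C40, with no share of all genes taken at that threshold. Ptprf, a receptor phosphatase (LAR), was at 0 and 0.0737 CPM in I60, 22.6 and 22.7 CPM in C40, and 349 and 437 CPM in PBS. It fell by 9.51 in I60 (limma adjusted p = 4.5e-06) and by 4.08 in C40 (limma adjusted p = 9.97e-05), and both calls held in all alternatives. Adam10, the protease that sheds ephrins, was at 68.2 and 87.6 CPM in I60, 111 and 86.8 CPM in C40, and 216 and 147 CPM in PBS, and fell by 1.2 in I60 (limma adjusted p = 0.012). That call was lost without I60 replicate 1 or PBS replicate 1 (limma adjusted p = 0.0928 and 0.0991). In C40 the log2 fold change of Adam10 was −0.86 (limma adjusted p = 0.0512), and it was called lower with edgeR (adjusted p = 0.0402), with DESeq2 (adjusted p = 0.00796), with TMM or DESeq2-type scaling and without C40 replicate 1 (limma adjusted p = 0.0293). Psen2, a presenilin of the gamma-secretase complex, fell by 1.13 in I60, and Cbl, a ubiquitin ligase for receptor tyrosine kinases, fell by 0.71, and leaving out any I60 or PBS library ended both calls (limma adjusted p from 0.0709 to 0.186). Psen2 also lost its I60 call with edgeR (adjusted p = 0.0511) and with no filter on low values, and leaving out C40 replicate 2 gave a lower call in C40 (limma adjusted p = 0.0147).

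**Figure D4:**
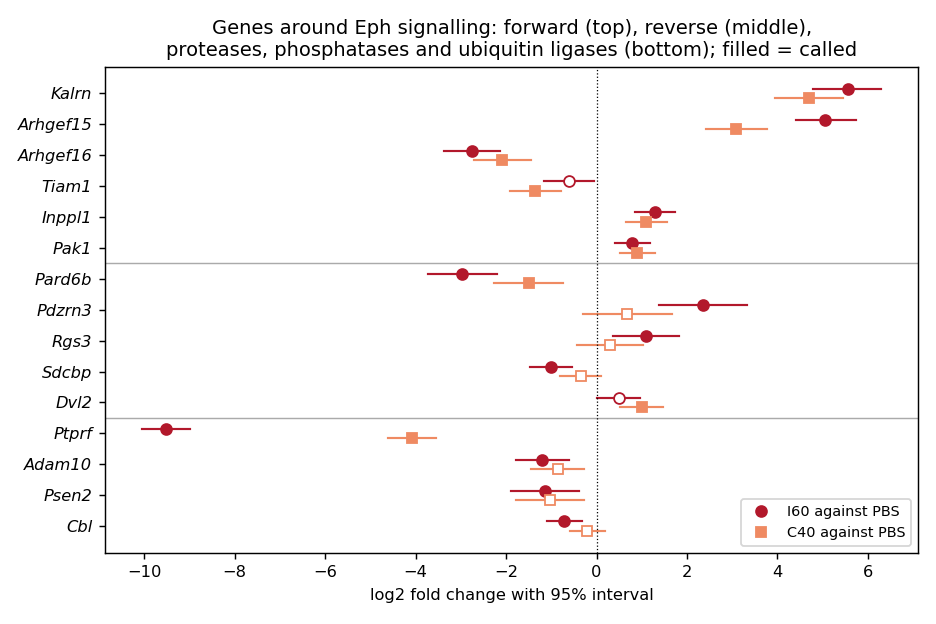
Log2 fold change with its 95% interval (horizontal axis) of the named signalling genes, with I60 against PBS as circles and C40 against PBS as squares; filled marks passed the limma test at an adjusted p below 0.05. Ptprf lies farthest to the left, at −9.51 in I60, and Kalrn farthest to the right, at 5.55.

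Within 500 kb of Epha1, 6 genes were tested. Of these, 5 were higher in I60 than in PBS, beside 13.9% of all genes tested, and 3 in C40, beside 11.2%. The others did not pass, with log2 fold changes of 0.03 for Casp2 in I60, and of 0.2 for Casp2, 0.67 for Clcn1 and −0.71 for Gstk1 in C40. Fam131b, 33.8 kb away, rose by 1.69 in I60 (limma adjusted p = 0.00516) and by 3.4 in C40 (limma adjusted p = 0.000392). In I60 against C40, Fam131b was the 1 of the 6 called lower, as Epha1 was, with a log2 fold change of −1.71 (limma adjusted p = 0.0121). The other way, 2 were called higher there, Gstk1 by 2.43 and Clcn1 by 1.36 (limma adjusted p = 0.00267 and 0.0215). Over all genes tested, 3.51% were higher and 5.73% lower in that comparison. Against PBS, Clcn1, a chloride channel gene 42.7 kb away, rose by 2.03 in I60 (limma adjusted p = 0.0017). Around Ephb2, 3 of 11 tested genes were higher and 1 lower in I60, and 2 were higher and 1 lower in C40. Over all genes tested, 13.9% were higher and 13.1% lower in I60, and 11.2% and 9.02% in C40. Wnt4, a Wnt ligand gene 441.3 kb away, fell by 3.75 in I60 and fell by 3.79 in C40 (limma adjusted p = 0.00123 and 0.00182), in the opposite direction to Ephb2. These windows were described with no test of the window.

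**Figure D5:**
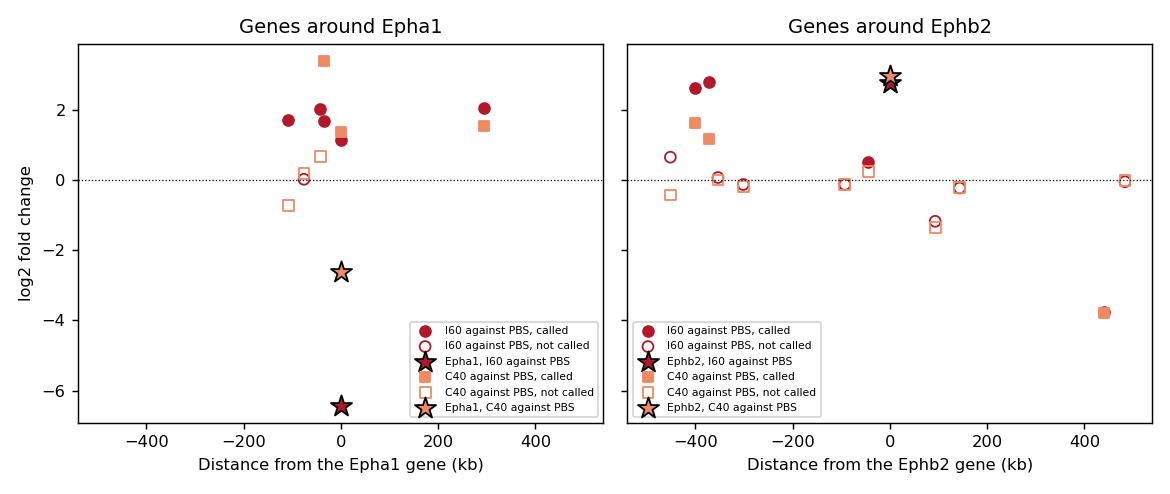
Log2 fold change (vertical axis) of the tested genes within 500 kb of Epha1 and Ephb2 against distance from the gene in kb, for I60 against PBS (circles) and C40 against PBS (squares); filled marks were called and stars are the gene itself. Epha1 lies at −6.43 and −2.61 below neighbours at or above 0 in I60.

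The profile most like that of Epha1 over the 6 libraries, by root mean square difference of centred log2(CPM + 0.5), was that of Grhl2, an epithelial transcription factor gene and one of the 15 epithelial markers (0.13). Grhl2 was at 0.562 and 0.645 CPM in I60, 14.2 and 15.5 CPM in C40, and 101 and 120 CPM in PBS. For Ephb2 the nearest were Spata6 (0.15) and Ptprg (0.16), for Epha4 Zfp750 (0.26) and Elmod1 (0.38), for Ephb3 Tspan1 (0.1) and Hipk2 (0.11), and for Efnb2 Mir6367 and Tnk2 (both 0.13). Some of these genes lay below the added 0.5 CPM, which shrinks their changes on this scale. Spata6 was at 0.0875 and 0.216 CPM in PBS, and Tspan1 at 0.281 and 0.221 CPM in I60. In C40 replicate 2, Zfp750 was at 0.147 CPM and Elmod1 at 0.129 CPM.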

How the data were processed

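RNA of 6 libraries was sequenced, 2 for each of I60, C40 and PBS. Ribosomal RNA was removed before library preparation, per the labels' protocols, which describe 2 depletion kits in the same text for every sample without saying which was used. The aligner STAR and build mm10 are named, per the submitters' processing notes. Counting program, annotation and strand setting: not given in the sources used here. CPM values in the table were computed and deposited by the authors. Division by the value of 1 read gave whole reads for 100% of values (tolerance 0.01). RefSeq matched 24374 of 24454 IDs, and lengths came from GENCODE M21.

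The 11524 genes that reached 1 CPM in 2 or more libraries were tested on log2(CPM + 0.5) by limma 3.58.1 (R 4.3.3; intensity trend), all 6 libraries in 1 model (3 residual degrees of freedom), two-sided, called at a Benjamini-Hochberg adjusted p below 0.05. edgeR 4.0.16 and DESeq2 1.42.0 on the recovered reads were alternatives, 2 of 17. The fit was tested on simulated data. The members and lists were chosen with earlier results of these data known. Named are the members, the tested family genes, up to 6 called genes a pathway list, and for each called member the 2 genes with the most similar profile, of which 1 gene is not reported here. Neighbouring genes, Epha7 and the markers given singly were named after their values were seen. Floors cover counting error only.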

Additional observations from a re-analysis of the deposited data

Results flagged for a closer look

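The effects of the H2O2 lines against PBS differed from each other for 3 of the 9 genes, by the test of I60 against C40. All 3 were lower in I60. Over all genes tested, 3.51% were higher and 5.73% lower in that comparison. Epha1 had a log2 fold change of −3.82 in I60 against C40 (limma adjusted p = 0.000239). Efnb2 had −1.11 (limma adjusted p = 0.0175) and Ephb3 −1.15 (limma adjusted p = 0.0471). Of these, Epha1 kept its call without each library in turn, and the calls of Efnb2 and Ephb3 were lost without several libraries.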

How the results depend on the processing

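Leaving out 1 library at a time moved the counts over all genes by more than 1.5 times. In I60 against PBS, genes higher ranged from 756 to 2120 and genes lower from 740 to 2070, in C40 against PBS from 549 to 1717 and from 425 to 1750, and in I60 against C40 from 140 to 832 and from 249 to 937. Genes lower in I60 against C40 numbered 660 in the fit reported, 418 with only the 2 groups compared and 1064 with DESeq2. Of the 9 genes, 1 was lower in I60 against C40 with only the 2 groups compared and 1 to 3 without 1 library. The cause was not tested. The labels do not say whether libraries with the same replicate number share an origin. With the replicate number as a block, genes higher and lower numbered 1786 and 1708 in I60 against PBS, 1552 and 1301 in C40 against PBS, and 472 and 781 in I60 against C40, and the counts of the 9 genes stayed at 1 and 4, 1 and 2, and 0 and 3. In C40 against PBS the block added calls of Efnb3, Adam10 and Psen2 as lower (limma adjusted p = 0.0434, 0.0411 and 0.037), and in I60 against C40 of Pdzrn3 as higher. The correlation of replicate differences was 0.105 between I60 and PBS, 0.154 between C40 and PBS and 0.438 between I60 and C40. No called value of the tested family genes and the named signalling genes changed sign in any of the 17 alternatives. Values that were not called could change sign, as that of Epha2 did in C40 against PBS (−1.01 to 0.41). With 2 libraries a group and 3 residual degrees of freedom, a difference that misses the threshold is not shown to be absent.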
